A study of Homo sapiens with 12 samples.

Results

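The genes of 3 signalling pathways, TGF-beta, BMP and Wnt, were followed in A375 cells, an established line from a human melanoma with an activating mutation in BRAF. They were picked by symbol: names that begin with TGFB, BMP, GDF, INHB, ACVR, SMAD, SMURF, LTBP, FST, GREM, WNT, AXIN, DVL, SFRP or NKD, and NOG, ID1 to ID3, LRP5, LRP6, APC, APC2, PORCN, RNF43, ZNRF3 and LEF1, without hyphenated symbols and without GDF15. This gave 44 of the 8579 genes in the count table. Of these, 28 were grouped as TGF-beta and BMP genes and 12 as Wnt genes. The other 4, BMP1, BMP2K, SMURF2P1 and TGFB1I1, matched by symbol and were set apart from both groups here.

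RNA was sequenced from 4 groups of 3 libraries, all from A375 cells grown in DMEM with fetal bovine serum and collected after 72 hours. The group titled UNTREATED carries the label DMSO, the drug solvent. SEL201, an inhibitor of the kinases MNK1 and MNK2, was given at 2.5 µM, OTX015, an inhibitor of BET bromodomain proteins, at 50 nM, and COMBO received both agents at these doses. The labels number the libraries 1 to 3 in each group without saying if each came from its own culture, and the p-values therefore measure only a spread between libraries that may be technical. The design is 1 cell line, 1 dose of each agent and 1 time.

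The libraries held 15146071 to 24111541 counts over the 8579 genes, which are totals of this table and not the sequencing depth. The table holds genes with mean counts of 78.7 to 9159, and pathway genes outside it, such as SMAD2 to SMAD5 or CTNNB1, were not analysed here. The 44 genes had mean counts of 136.9 to 7962, with no library under 87 counts, and all 44 passed the filter on low counts. Levels are given as CPM, counts scaled by each library's total over the 8579 genes of the table after TMM normalization, so a change shared by most genes would be removed.

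TGF-beta and BMP ligands are secreted dimers that bring together type I and type II receptor kinases. The activated type I receptor phosphorylates SMAD proteins, which enter the nucleus and switch on targets such as the ID genes. TGF-beta is stored in the matrix in a latent complex with LTBP proteins, while follistatins and noggin bind ligands outside the cell and SMAD6 and SMAD7 dampen the signal inside it. Wnt ligands, made active by the acyltransferase PORCN, bind Frizzled and LRP5 or LRP6 receptors, and the beta-catenin that then accumulates works with LEF and TCF factors on targets that include AXIN2 and NKD1. In melanoma both pathways are known for their part in differentiation state and invasion.

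To show the DNA in front of some of the genes that moved, 4 promoters are printed. They are FST and LTBP2, with the largest falls, ID2, with the largest rise with OTX015 and COMBO, and WNT3, a ligand that fell. WNT10B, a ligand that fell more than WNT3 with OTX015 and COMBO, is not shown. Each line is the 250 bases before the RefSeq start of the gene in GRCh38.p14, read 5′ to 3′ along the gene's own strand. Capitals mark matches to the SMAD box CAGAC (reverse complement GTCTG), the GC-rich SMAD site GGCGCC (its own reverse complement) or the TCF/LEF core TCAAAG (reverse complement CTTTGA), searched on both strands. The FST window is chr5:53480379-53480628 on the plus strand, LTBP2 chr14:74612238-74612487 on the minus strand, ID2 chr2:8681806-8682055 on the plus strand and WNT3 chr17:46818693-46818942 on the minus strand.
FST: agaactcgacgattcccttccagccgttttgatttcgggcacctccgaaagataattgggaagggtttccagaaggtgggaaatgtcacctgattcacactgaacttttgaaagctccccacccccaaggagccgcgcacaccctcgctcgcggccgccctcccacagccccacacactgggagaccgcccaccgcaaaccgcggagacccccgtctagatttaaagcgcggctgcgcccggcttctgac
LTBP2: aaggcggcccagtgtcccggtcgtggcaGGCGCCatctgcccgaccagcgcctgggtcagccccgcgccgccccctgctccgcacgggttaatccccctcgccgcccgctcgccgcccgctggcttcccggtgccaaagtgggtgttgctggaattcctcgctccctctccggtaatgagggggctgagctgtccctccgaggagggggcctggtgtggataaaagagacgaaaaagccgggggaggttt
ID2: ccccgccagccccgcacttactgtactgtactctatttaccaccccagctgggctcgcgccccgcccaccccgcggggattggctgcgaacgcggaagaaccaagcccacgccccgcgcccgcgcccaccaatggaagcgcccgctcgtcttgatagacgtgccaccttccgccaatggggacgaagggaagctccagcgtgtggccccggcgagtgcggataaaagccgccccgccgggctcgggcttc
WNT3: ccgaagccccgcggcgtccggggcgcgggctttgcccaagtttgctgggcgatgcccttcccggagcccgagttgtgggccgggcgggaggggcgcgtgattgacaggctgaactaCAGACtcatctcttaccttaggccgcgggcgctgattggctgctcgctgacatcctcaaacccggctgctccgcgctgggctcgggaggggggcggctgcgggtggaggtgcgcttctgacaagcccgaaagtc
LTBP2 held 1 match to GGCGCC and WNT3 held 1 match to CAGAC, and no matches overlapped. The FST and ID2 windows held none of these letters, which says nothing about factors that bind elsewhere. Of all 35116 RefSeq windows of the same length, 38% held CAGAC, 16.4% held GGCGCC and 11.2% held TCAAAG, on either strand. Windows were found for 34 of the 44 genes. The counts themselves were made on hg19, and the sequences are a description of the reference and were not tested against the changes.

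The pathway genes moved in both directions with each treatment. Against UNTREATED, 8 of the 44 genes rose with SEL201 (18.2%) and 12 fell (27.3%), where 10.1% of all 8579 genes were called higher and 11.1% lower (edgeR, adjusted p under 0.05). With OTX015 16 rose (36.4%) and 15 fell (34.1%), against 23.3% higher and 24.7% lower among all genes. With COMBO 16 rose (36.4%) and 20 fell (45.5%), against 28.3% and 29.6%. The difference from the share among all genes was not tested. The median log2 change of the 44 genes was -0.07 with SEL201, -0.10 with OTX015 and -0.13 with COMBO, where the median of all genes was 0.00 in each. These comparisons share the UNTREATED libraries, and COMBO holds both agents. The shares of all genes with the call patterns that follow were not computed. In this fit no gene was called higher with one treatment and lower with another: 12 fell in all 3 comparisons (FST, FSTL1, FSTL3, NOG, LTBP2, LTBP4, SMAD6, BMP2, WNT3, WNT10B, BMP1 and TGFB1I1), 8 rose in all 3 (ID2, LTBP1, BMP7, BMP8B, TGFBR3, ACVR1, ZNRF3 and SMURF2P1) and 7 passed in none (TGFB2, TGFBR3L, ACVR2A, SMAD1, SMAD7, SMAD9 and SFRP5). With each library left out in turn, 16 of the 20 calls with SEL201 passed in all 12 omissions, as did 28 of 31 with OTX015 and 29 of 36 with COMBO. The calls that were lost are given with each gene. A second fit added the library number as a block (the replicate block), since same-numbered libraries deviated from their group means together. It lost none of these calls and is given where it added one. With the block WNT9A was called lower with SEL201 and higher with OTX015 and COMBO, with its values given below.

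**Figure D1:**
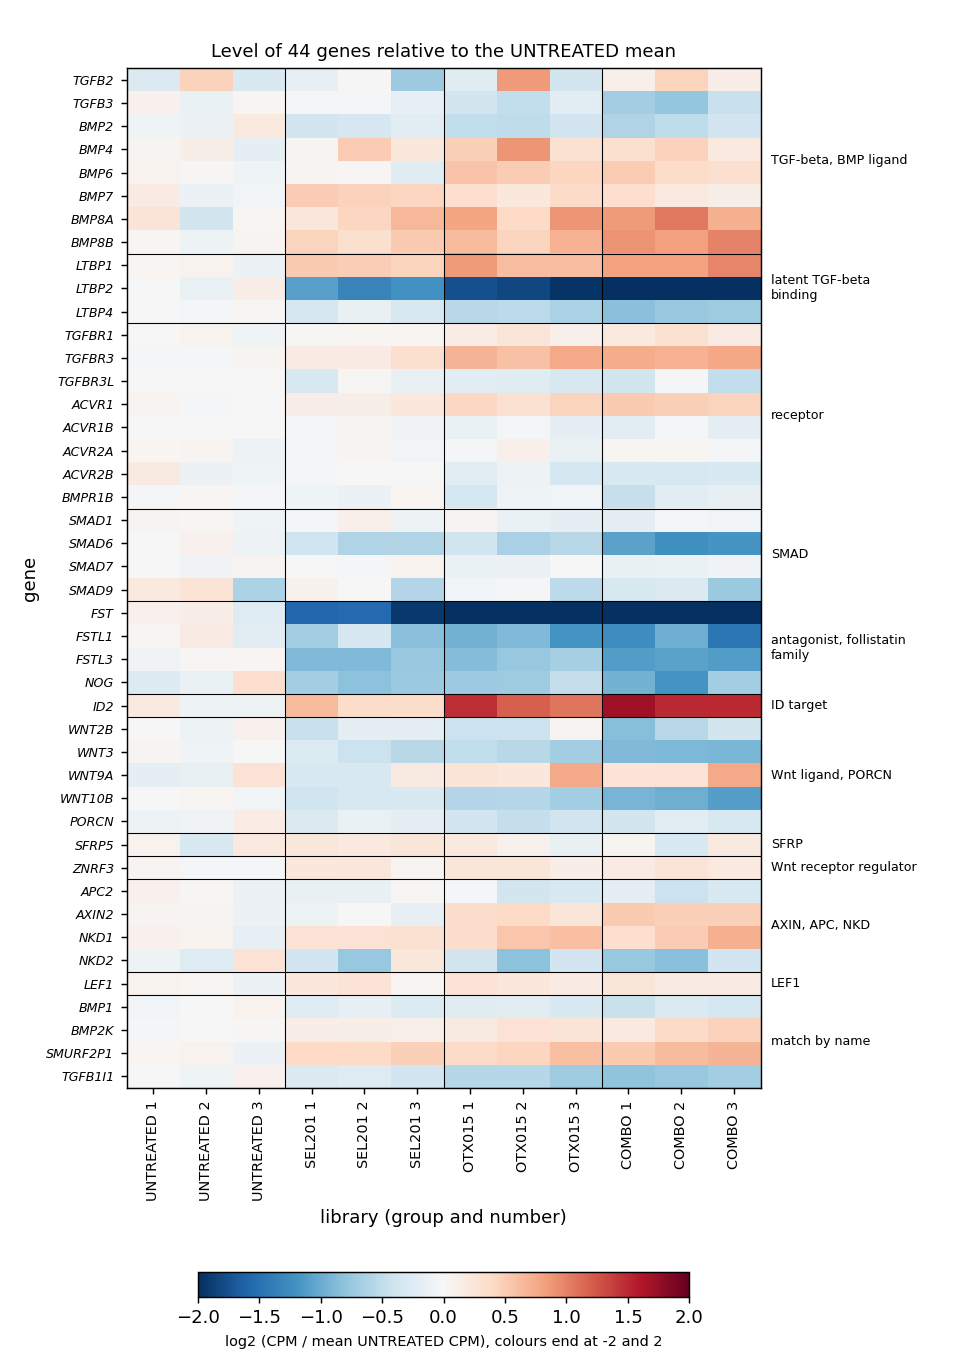
Rows are the 44 genes ordered by role and columns the 12 libraries, and colour gives log2 of the CPM over the mean of the 3 UNTREATED libraries, with colours ending at -2 and 2. FST and LTBP2 are the darkest blue rows across the treated libraries and ID2 the darkest red one.

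Without treatment the 44 genes spanned a wide range of levels, compared here as CPM per kilobase of annotated exon. BMP2 stood highest in UNTREATED at 99.6 ± 12.1 (SD, n = 3), followed by the follistatin-family genes FSTL3 at 91.6 ± 3.6 and FST at 75.6 ± 10.8. WNT9A at 71.9 ± 13.5 and LEF1 at 63.7 ± 4.29 came next. Each of these neighbours lay within the larger of the pair's SDs of each other, except FSTL3 and FST, whose means were further apart than either SD. The lowest were WNT2B at 0.635 ± 0.0422, NKD1 at 0.905 ± 0.0834 and AXIN2 at 1.49 ± 0.103. The order changed with treatment: FST fell from the third place to 5.72 ± 0.994 CPM per kilobase in COMBO, and BMP8B, at 56.6 ± 3.21 in UNTREATED, reached 106 ± 6.84.

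Among the 44 genes, 4 encode secreted antagonists or proteins of the follistatin family. All 4, FST, FSTL1, FSTL3 and NOG, fell with SEL201, with OTX015 and with COMBO, where 11.1%, 24.7% and 29.6% of all genes were called lower. Outside the 44 genes, the BMP antagonists CHRDL1 and NBL1 went in opposite directions, as given below. FST, follistatin, which binds and neutralises activins and some BMPs, stood at 239, 247 and 188 CPM in UNTREATED libraries 1 to 3, at 75.4, 76.1 and 59.2 in SEL201, at 27.1, 24.7 and 25 in OTX015 and at 18.6, 18.8 and 13.6 in COMBO. The 4 groups did not overlap, and within every group but OTX015 library 3 was the lowest. The log2 change was -1.67 ± 0.13 (SE, adjusted p = 1.3e-06) with SEL201, -3.13 ± 0.14 (1.2e-09) with OTX015 and -3.71 ± 0.14 (1.15e-10) with COMBO, which is 13.1-fold lower. COMBO was lower than SEL201 by a log2 change of -2.04 ± 0.14 (adjusted p = 1.21e-07), and OTX015 lower than SEL201 by -1.46 ± 0.13 (7.58e-06). COMBO was also lower than OTX015, by -0.58 ± 0.14 (adjusted p = 0.0268), a call lost without library OTX015 1 (-0.54, 0.0884), OTX015 2 (-0.60, 0.0592), OTX015 3 (-0.59, 0.052) or COMBO 3 (-0.45, 0.0867).

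FSTL3, a secreted follistatin relative that also binds activin, stood at 269, 284 and 290 CPM in UNTREATED, 152, 153 and 167 in SEL201, 154, 166 and 176 in OTX015 and 129, 133 and 130 in COMBO. The single agents overlapped each other, and both lay apart from UNTREATED above and COMBO below. FSTL3 fell by 0.84 ± 0.06 (SE) on the log2 scale with SEL201 (adjusted p = 5.86e-07), by 0.76 ± 0.06 with OTX015 (1.22e-07) and by 1.10 ± 0.06 with COMBO (1.66e-09). FSTL1, a secreted glycoprotein of the same family, stood at 94.3, 103 and 78 CPM in UNTREATED, 56.4, 72.6 and 51.6 in SEL201, 47.5, 49.9 and 39.9 in OTX015 and 38.7, 46.7 and 33.5 in COMBO. In each group library 2 was the highest and library 3 the lowest, and each treated group lay below UNTREATED, while OTX015 and COMBO overlapped. The log2 changes of FSTL1 were -0.61 ± 0.14 (adjusted p = 0.00833), -1.0 ± 0.15 (6.68e-05) and -1.21 ± 0.15 (7.54e-06) with SEL201, OTX015 and COMBO.

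NOG, noggin, which binds BMPs and keeps them from their receptors, was low, at 18.7, 20.5 and 28.5 CPM in UNTREATED, 14.1, 12.8 and 13.5 in SEL201, 13.6, 13.8 and 16.2 in OTX015 and 11.7, 9.8 and 13.9 in COMBO. UNTREATED library 3 stood above the other libraries, and all treated libraries lay below all UNTREATED ones. NOG fell by 0.74 ± 0.16 (adjusted p = 0.00477), 0.63 ± 0.16 (0.00463) and 0.94 ± 0.16 (0.000184) on the log2 scale with SEL201, OTX015 and COMBO. COMBO did not pass against either single agent, at -0.20 ± 0.17 against SEL201 (adjusted p = 0.369) and -0.31 ± 0.16 against OTX015 (0.309).

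Of 6 fibroblast markers listed, COL1A1, DCN, LUM and PDGFRB were measured. Their summed level in UNTREATED ran from 124 to 164 CPM. It ran from 99.2 to 111 CPM in SEL201, from 74.0 to 80.8 CPM in OTX015 and from 63.9 to 65.6 CPM in COMBO. All 4 fell with OTX015 and with COMBO and 3 fell with SEL201, and none was at 0. Of 5 epithelial markers listed, KRT8, a keratin, was measured. UNTREATED libraries held 193 to 204 CPM of it, SEL201 libraries 120 to 127, OTX015 libraries 107 to 115 and COMBO libraries 93.1 to 102. KRT8 fell by 0.69 ± 0.05, 0.83 ± 0.05 and 1.02 ± 0.05 with SEL201, OTX015 and COMBO (adjusted p = 1.18e-06, 2.74e-08 and 1.38e-09). The part of these markers in the fall of FST, LTBP2 and the other genes was not tested, and in bulk RNA fewer cells of a type and less RNA per cell cannot be told apart. Of 11 melanocyte markers listed, 7 were measured, and they summed to between 682 and 746 CPM in UNTREATED libraries, between 544 and 569 with SEL201, between 531 and 557 with OTX015 and between 503 and 506 with COMBO. MITF lay at 137 to 187 CPM over the 12 libraries, and PMEL and MLANA at no more than 7.58 and 7.01 CPM. MITF, GPNMB and MLPH fell in all 3 comparisons, GPNMB by 0.57 ± 0.07, 0.74 ± 0.07 and 1.06 ± 0.07 (adjusted p = 5.5e-05, 8.4e-07 and 1.34e-08). S100B rose in all 3, by 0.37 ± 0.11, 0.75 ± 0.11 and 0.94 ± 0.11 (adjusted p = 0.0223, 5.1e-05 and 3.38e-06), MLANA rose with COMBO, and PMEL and S100A1 passed in none. Of 5 markers of less differentiated melanoma, NGFR and SOX9 were measured, and NGFR fell in all 3 comparisons (-1.04 ± 0.23, -0.65 ± 0.23 and -0.73 ± 0.23, adjusted p = 0.00584, 0.0293 and 0.0136). SOX9 passed in none, at -0.29, 0.15 and 0.10 with SEL201, OTX015 and COMBO, and with the block it was called lower with SEL201. Of the leukocyte and endothelial markers listed, none was among the genes analysed here.

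**Figure D2:**
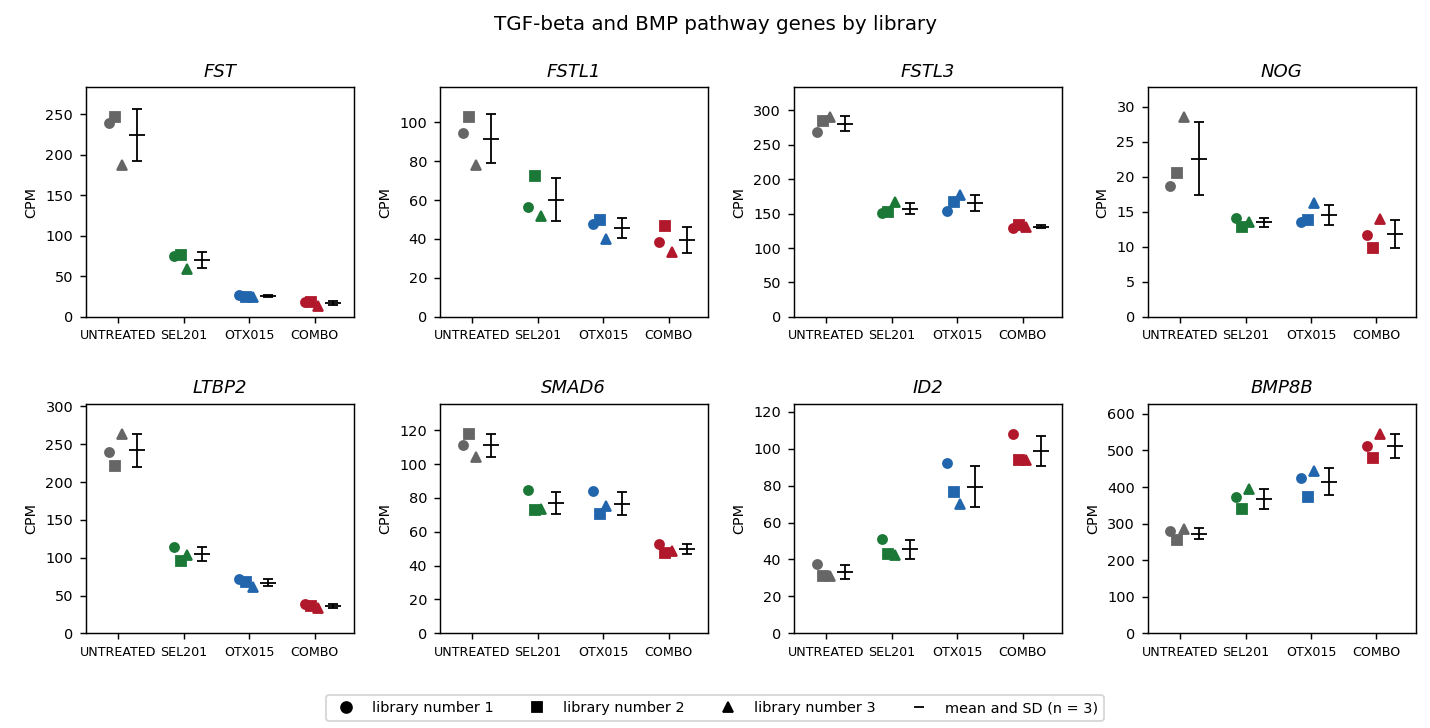
Panels show the CPM of 8 TGF-beta and BMP pathway genes by group. Symbols are single libraries, with shape for the library number, and the dash with bars beside them is the mean and SD of the 3. FST and LTBP2 step down from UNTREATED to SEL201, OTX015 and COMBO without overlap, and ID2 and BMP8B stand lowest in UNTREATED and highest in COMBO.

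The latent TGF-beta binding proteins, which tether latent TGF-beta to the matrix, moved apart: LTBP2 and LTBP4 fell and LTBP1 rose, each in all 3 comparisons with UNTREATED. LTBP2, a fibrillin-like matrix protein that does not itself bind latent TGF-beta, stood at 240, 221 and 264 CPM in UNTREATED, 114, 95.3 and 104 in SEL201, 71.4, 68.4 and 61.9 in OTX015 and 38.2, 36.2 and 33.9 in COMBO. No group overlapped another. Its log2 change was -1.21 ± 0.08 (adjusted p = 5.86e-07) with SEL201, -1.85 ± 0.08 (1.54e-09) with OTX015 and -2.74 ± 0.09 (2.27e-11) with COMBO, the last 6.69-fold lower. LTBP2 in COMBO was below both single agents, by -1.53 ± 0.09 against SEL201 (adjusted p = 2.12e-08) and by -0.89 ± 0.09 against OTX015 (4.06e-05).

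LTBP4 stood at 485, 478 and 491 CPM in UNTREATED, 386, 437 and 390 in SEL201, 329, 335 and 314 in OTX015 and 270, 285 and 297 in COMBO, and no groups overlapped. It fell by 0.26 ± 0.05 (adjusted p = 0.0023), 0.57 ± 0.05 (7.35e-07) and 0.77 ± 0.05 (1.85e-08) on the log2 scale. LTBP4 in COMBO was lower than in OTX015 by -0.20 ± 0.05 (adjusted p = 0.032), a call lost without OTX015 1 (0.0955), OTX015 2 (0.111), COMBO 1 (0.12) or COMBO 2 (0.076). LTBP1 stood at 33.0, 33.5 and 29.4 CPM in UNTREATED, 46.0, 45.0 and 43.7 in SEL201, 57.4, 49.1 and 48.9 in OTX015 and 56.1, 56 and 63.1 in COMBO. All treated libraries were above all UNTREATED ones, and OTX015 library 1 lay within the COMBO range. LTBP1 rose by 0.49 ± 0.09 (adjusted p = 0.00114), 0.69 ± 0.09 (1.46e-05) and 0.87 ± 0.09 (8.98e-07) on the log2 scale with SEL201, OTX015 and COMBO.

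Among the 8 ligands the BMP8 and BMP6 genes rose while BMP2 and TGFB3 fell. With OTX015, 5 rose (BMP4, BMP6, BMP7, BMP8A and BMP8B) and 2 fell (BMP2 and TGFB3), against 23.3% higher and 24.7% lower among all genes. With COMBO 4 rose and 2 fell, against 28.3% and 29.6%. BMP8B, a ligand known from germ cells and brown fat, stood at 279, 255 and 284 CPM in UNTREATED, 373, 340 and 394 in SEL201, 425, 373 and 444 in OTX015 and 511, 479 and 545 in COMBO. Library 2 was the lowest in each group, the single agents overlapped, and COMBO lay above all others. The log2 changes of BMP8B were 0.43 ± 0.07 (adjusted p = 0.000747), 0.60 ± 0.07 (1.12e-05) and 0.91 ± 0.07 (1.12e-07). BMP8B in COMBO was above OTX015 by 0.31 ± 0.07 (adjusted p = 0.0202), a call lost without OTX015 2 (0.0821), COMBO 1 (0.0593) or COMBO 3 (0.078). Its near-identical neighbour BMP8A was far lower, at 5.62, 3.61 and 4.81 CPM in UNTREATED, 5.5, 6.31 and 7.44 in SEL201, 8.13, 6.16 and 8.59 in OTX015 and 8.44, 9.76 and 7.67 in COMBO. BMP8A rose by 0.70 ± 0.19 with OTX015 (adjusted p = 0.00783) and 0.89 ± 0.19 with COMBO (0.00114), and did not pass with SEL201 (0.45 ± 0.20, 0.122). The counting could split reads between BMP8A and BMP8B, so which of the pair carries the change is uncertain.

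TGFB3, a TGF-beta isoform, stood at 41.2, 35.6 and 39.7 CPM in UNTREATED, 37.7, 38.2 and 34.6 in SEL201, 30.2, 27.7 and 33.2 in OTX015 and 24, 22.8 and 28.6 in COMBO. SEL201 overlapped UNTREATED, and OTX015 and COMBO lay below both. TGFB3 did not pass with SEL201 (log2 change -0.08 ± 0.10, adjusted p = 0.648) and fell by 0.35 ± 0.10 with OTX015 (0.00957) and 0.63 ± 0.10 with COMBO (9.99e-05). BMP2, a BMP known from bone formation, fell by 0.31 ± 0.08 (adjusted p = 0.01), 0.45 ± 0.08 (0.000246) and 0.49 ± 0.08 (7.59e-05) with SEL201, OTX015 and COMBO. The fall of BMP2 with SEL201 was -0.21 (adjusted p = 0.0364) without UNTREATED 3, its highest library. BMP6 did not pass with SEL201 (-0.04 ± 0.08, adjusted p = 0.76) and rose with OTX015 by 0.51 ± 0.08 (0.000144) and with COMBO by 0.40 ± 0.08 (0.000655), and OTX015 was above SEL201 by 0.55 ± 0.08 (0.000358).

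BMP7, which signals through type II activin and BMP receptors, rose in all 3 comparisons with UNTREATED. Its log2 change was 0.47 ± 0.09 with SEL201 (adjusted p = 0.00172), 0.31 ± 0.09 with OTX015 (0.00917) and 0.22 ± 0.09 with COMBO (0.0418), where the COMBO and UNTREATED libraries overlapped. BMP7 was lower in COMBO than in SEL201 by -0.25 ± 0.09 (adjusted p = 0.0364), and OTX015 did not pass against SEL201 (-0.16 ± 0.09, 0.212). The COMBO call of BMP7 against UNTREATED was lost without UNTREATED 2 (0.17, 0.162), UNTREATED 3 (0.113), SEL201 1 (0.0515), SEL201 2 (0.0506), OTX015 1 (0.0526), COMBO 1 (0.16, 0.182) or COMBO 2 (0.0658). Against SEL201 it was lost without SEL201 1 (0.111), SEL201 2 (0.0717), SEL201 3 (0.0514), COMBO 2 (0.0936) or COMBO 3 (0.122). BMP4 rose with OTX015 by 0.58 ± 0.15 (adjusted p = 0.00584) and did not pass with SEL201 (0.27 ± 0.15, 0.243) or COMBO (0.33 ± 0.15, 0.0743). With the library number as a block in the fit, BMP4 also passed with SEL201 (0.26, adjusted p = 0.0302) and COMBO (0.33, 0.00274). TGFB2 passed in no comparison with UNTREATED. Its libraries numbered 2 were the highest of each group, at 14.0, 10.3, 18.3 and 13.9 CPM in UNTREATED, SEL201, OTX015 and COMBO.

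The log2 changes of the 8 receptors with COMBO ran from -0.31 to 0.74. TGFBR3, betaglycan, a co-receptor that presents TGF-beta ligands, had the highest of these, at 100, 99.3 and 105 CPM in UNTREATED, 113, 114 and 126 in SEL201, 162, 152 and 173 in OTX015 and 170, 165 and 174 in COMBO. SEL201 lay between UNTREATED and the other treated groups, and OTX015 and COMBO overlapped. TGFBR3 rose by 0.68 ± 0.06 with OTX015 (adjusted p = 6.19e-07) and 0.74 ± 0.06 with COMBO (1.19e-07) on the log2 scale, and by 0.21 ± 0.06 with SEL201 (0.0199). OTX015 was above SEL201 by 0.46 ± 0.06 (adjusted p = 0.000117). The rise of TGFBR3 with SEL201 did not pass without UNTREATED 1 (0.0609), UNTREATED 2 (0.07) or SEL201 3 (0.0877).

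ACVR1, a type I receptor for BMPs and activin, rose by 0.39 ± 0.05 with OTX015 (adjusted p = 1.26e-05) and 0.48 ± 0.05 with COMBO (8.82e-07). Its rise with SEL201, 0.15 ± 0.05 (adjusted p = 0.03), did not pass without UNTREATED 2 (0.105), UNTREATED 3 (0.0758), SEL201 1 (0.0553) or SEL201 3 (0.112). TGFBR1, the type I receptor for TGF-beta, rose by 0.23 ± 0.05 with COMBO (adjusted p = 0.00158) and by 0.16 ± 0.05 with OTX015 (0.0169), the latter lost without UNTREATED 3 (0.0733) or OTX015 2 (0.0864). The type II activin receptors differed: ACVR2A showed -0.01 ± 0.07, -0.01 ± 0.07 and 0.01 ± 0.07 with SEL201, OTX015 and COMBO, while ACVR2B fell by 0.31 ± 0.07 with COMBO (adjusted p = 0.00219). ACVR2B fell by 0.22 ± 0.07 with OTX015 (adjusted p = 0.0235), which was -0.12 (0.141) without UNTREATED 1, its highest library, -0.22 (0.056) without OTX015 1 and -0.16 (0.108) without OTX015 3.

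The smaller receptor calls depended on which libraries were included. ACVR1B, a type I activin receptor, was at -0.14 ± 0.05 with COMBO (adjusted p = 0.0307), and this was lost without UNTREATED 1 (0.0596), UNTREATED 2 (0.0665), UNTREATED 3 (0.0666), COMBO 1 (0.12) or COMBO 3 (0.101). BMPR1B, a type I BMP receptor, was at -0.28 ± 0.11 (adjusted p = 0.0442), and COMBO 1 was its lowest library. Without COMBO 1 it was at -0.19 (adjusted p = 0.19), and the call was also lost without UNTREATED 1 (0.078), UNTREATED 2 (0.109), UNTREATED 3 (0.068), SEL201 1 (0.0545), SEL201 2 (0.0511), OTX015 2 (0.0511) or COMBO 2 (0.0518). With the block, ACVR1B also passed with OTX015 (-0.11, adjusted p = 0.00848), and TGFBR3L, a TGFBR3-like gene, with COMBO (-0.28, 0.0458).

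Of the 4 SMADs only SMAD6 passed against UNTREATED without the block. It was called lower with SEL201, OTX015 and COMBO, where 11.1%, 24.7% and 29.6% of all genes were called lower. SMAD6, an inhibitory SMAD that acts mainly on BMP signalling, stood at 111, 118 and 104 CPM in UNTREATED, 84.6, 73.0 and 73.3 in SEL201, 84.1, 70.6 and 75.3 in OTX015 and 52.9, 47.4 and 48.8 in COMBO. The single agents overlapped each other, and COMBO lay below both with no overlap. The log2 change of SMAD6 was -0.53 ± 0.08 (adjusted p = 0.000489) with SEL201, -0.54 ± 0.08 (0.000105) with OTX015 and -1.16 ± 0.08 (4.68e-08) with COMBO. COMBO was lower than SEL201 by -0.63 ± 0.08 (adjusted p = 5.15e-05) and lower than OTX015 by -0.62 ± 0.08 (0.000624), and the interaction, which subtracts both single-agent changes from the COMBO change, was -0.09 ± 0.12 (0.907).

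SMAD7, the inhibitory SMAD of TGF-beta signalling, was at 0.02 ± 0.05, -0.09 ± 0.05 and -0.12 ± 0.05 with SEL201, OTX015 and COMBO, and the last passed only with the block (-0.12, adjusted p = 0.0136). COMBO was below SEL201 by -0.14 ± 0.05 (adjusted p = 0.0432), a call lost without UNTREATED 1 (0.055), SEL201 1 (0.0755), SEL201 3 (0.143), OTX015 2 (0.0514), COMBO 1 (0.122) or COMBO 2 (0.102). SMAD1, a receptor-activated SMAD of the BMP branch, was between -0.09 ± 0.08 and 0.00 ± 0.08 in these comparisons. SMAD9, of the same branch, was lowest in library 3 of every group, and its value with COMBO, -0.43 ± 0.24 (adjusted p = 0.141), passed with the block (-0.42, 0.00769).

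ID2, an inhibitor of basic helix-loop-helix factors and a direct target of BMP SMADs, was the gene of the 44 with the largest rise with OTX015 and with COMBO. It stood at 37.8, 31.0 and 30.9 CPM in UNTREATED, 51.4, 42.7 and 42.5 in SEL201, 92, 76.4 and 70.0 in OTX015 and 108, 93.8 and 93.9 in COMBO. No groups overlapped, and library 1 was the highest of each. ID2 rose by 0.45 ± 0.12 with SEL201 (adjusted p = 0.0131), 1.26 ± 0.12 with OTX015 (1.09e-06) and 1.57 ± 0.12 with COMBO (6e-08), the last 2.96-fold. OTX015 was above SEL201 by 0.80 ± 0.12 (adjusted p = 0.000302), and COMBO was 0.31 ± 0.11 above OTX015 (0.121), which passed with the block (0.31, 0.000127). The SEL201 call of ID2 was lost without UNTREATED 2 (0.41, 0.057) or SEL201 1 (0.36, 0.0709).

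**Figure D3:**
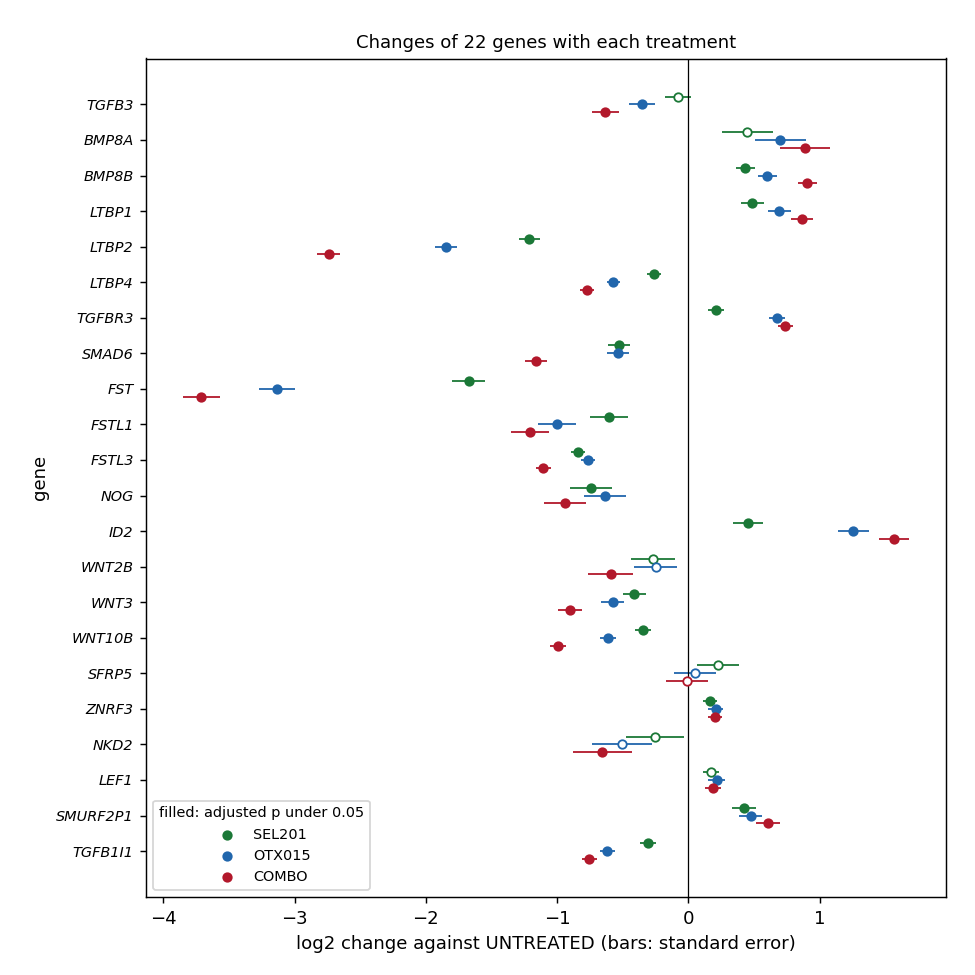
Points are log2 changes of 22 genes against UNTREATED (x axis) with SEL201, OTX015 and COMBO, bars are standard errors, and filled points have an adjusted p under 0.05. FST, LTBP2, FSTL1, FSTL3, NOG and SMAD6 lie left of 0 with every treatment, and ID2, LTBP1, BMP8B and TGFBR3 lie right of it.

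Other genes of the TGF-beta and BMP pathways were read from a list of 38, of which 11 were measured. Of these, 3 rose and 3 fell with SEL201 (27.3% each, against 10.1% higher and 11.1% lower among all genes), or 5 and 5 with the block (45.5% each, against 18.0% and 19.1%). With OTX015 and with COMBO 4 rose (36.4%) and 5 fell (45.5%), where the shares of all genes were 23.3% and 24.7% with OTX015 and 28.3% and 29.6% with COMBO. Their median log2 change in COMBO was -0.14. CHRDL1 and NBL1, secreted BMP antagonists measured from this list and named after their values were seen, went in opposite directions. CHRDL1, chordin-like 1, rose by 0.80 ± 0.15 with OTX015 (adjusted p = 0.000566) and 0.78 ± 0.15 with COMBO (0.000487), with 0.27 ± 0.15 (0.241, and 8.03e-06 with the block) in SEL201. NBL1, of the DAN family, fell by 0.28 ± 0.06 with OTX015 (adjusted p = 0.00182) and 0.37 ± 0.06 with COMBO (0.000138). ID4, a relative of ID2, rose by 1.10 ± 0.19 with SEL201 (adjusted p = 0.00117) and 1.62 ± 0.19 with OTX015 (1e-05), and HTRA1, a secreted protease that can cut TGF-beta family proteins, rose by 1.45 ± 0.16 with OTX015 (5.27e-06) and 1.86 ± 0.16 with COMBO (2.55e-07). TGIF2, a nuclear co-repressor of SMADs, fell by 0.34 ± 0.06, 0.87 ± 0.06 and 1.41 ± 0.06 with SEL201, OTX015 and COMBO (adjusted p = 0.000698, 4.27e-08 and 2.19e-10). None of the 11 passed the interaction test in edgeR, defined with SMAD6 above, against 0.210% positive and 0.0699% negative among all genes. Of the 11, 3 had an unadjusted p under 0.05 in this test. The lowest p there belonged to ID4 (-0.67 ± 0.26, adjusted p = 0.417), TGIF2 (-0.20 ± 0.08, 0.44) and HTRA1 (-0.48 ± 0.22, 0.541), which passed with the block at adjusted p = 0.0351, 0.0182 and 1.93e-06. With the block 6 of the 11 passed, CHRDL1 also with a negative value (-0.30, adjusted p = 0.00132) and CTGF (0.20, 0.0379) and CYR61 (0.32, 0.000787) with positive ones, against 4.02% positive and 2.73% negative among all genes.

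Of the 12 Wnt genes, 1 rose (8.33%) and 2 fell (16.7%) with SEL201, against 10.1% and 11.1% of all genes. With the block 3 rose and 4 fell (33.3%), against 18.0% and 19.1%. With OTX015 4 rose (33.3%) and 3 fell (25%), against 23.3% and 24.7%, and with COMBO 5 rose (41.7%) and 6 fell (50%), against 28.3% and 29.6%. With the block WNT9A was also called higher with OTX015, and APC2 and NKD2 lower, with their values given below. The ligands WNT3, WNT10B and WNT2B fell, while WNT9A rose with COMBO. WNT3, a ligand of the beta-catenin branch, stood at 40.2, 37.1 and 39.1 CPM in UNTREATED, 32.2, 28.8 and 26.3 in SEL201, 27.8, 26.3 and 24 in OTX015 and 21.1, 20.8 and 20.5 in COMBO. The single agents overlapped between UNTREATED above and COMBO below. WNT3 fell by 0.41 ± 0.09 (adjusted p = 0.00444), 0.58 ± 0.09 (0.000106) and 0.90 ± 0.09 (1.06e-06) on the log2 scale with SEL201, OTX015 and COMBO. Its difference between COMBO and OTX015, -0.32 ± 0.09 (adjusted p = 0.0482), was lost without UNTREATED 1 (0.0666), UNTREATED 2 (0.0616), UNTREATED 3 (0.0563), SEL201 2 (0.0594), OTX015 1 (0.158), OTX015 2 (0.126), COMBO 1 (0.106), COMBO 2 (0.111) or COMBO 3 (0.113).

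WNT10B, a ligand of the same branch, stood at 121, 124 and 117 CPM in UNTREATED, 91.8, 96.6 and 97.2 in SEL201, 80.6, 81.1 and 75.4 in OTX015 and 63.5, 61.6 and 56.2 in COMBO. No groups overlapped. WNT10B fell by 0.34 ± 0.06 (adjusted p = 0.00114), 0.61 ± 0.06 (1.91e-06) and 1.0 ± 0.06 (9.13e-09) with SEL201, OTX015 and COMBO, and COMBO was below OTX015 by -0.38 ± 0.06 (0.00223). WNT2B was low, at 8.02, 7.43 and 8.48 CPM in UNTREATED, 5.85, 6.96 and 7.07 in SEL201, 5.91, 5.93 and 8.28 in OTX015 and 4.44, 5.41 and 6.15 in COMBO. Only COMBO passed for WNT2B, at -0.59 ± 0.17 (adjusted p = 0.00871), with OTX015 library 3 inside the UNTREATED range.

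WNT9A, a ligand known from limb joints, differed by library number as well as by group. It stood at 252, 257 and 347 CPM in UNTREATED, 232, 232 and 325 in SEL201, 341, 329 and 483 in OTX015 and 346, 351 and 480 in COMBO. Library 3 was the highest in each of the 4 groups, and UNTREATED 3 lay inside the OTX015 and COMBO ranges. The log2 change of WNT9A was -0.12 ± 0.18 (adjusted p = 0.69) with SEL201, 0.43 ± 0.18 (0.0614) with OTX015 and 0.46 ± 0.18 (0.0399) with COMBO. With the library number as a block it was -0.12 (adjusted p = 0.00526), 0.42 (3.46e-12) and 0.46 (3.04e-13), so that all 3 passed. Without the block, the COMBO call of WNT9A was lost without UNTREATED 1 (0.38, 0.133), UNTREATED 2 (0.39, 0.127) or COMBO 3 (0.29, 0.195). The same gene was higher in OTX015 than in SEL201 by 0.55 ± 0.18 (adjusted p = 0.0394), lost without SEL201 1 (0.137), SEL201 2 (0.133) or OTX015 3 (0.35, 0.177). It was higher in COMBO than in SEL201 by 0.58 ± 0.18 (adjusted p = 0.0195), lost without SEL201 1 (0.0809), SEL201 2 (0.0755) or COMBO 3 (0.0956).

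PORCN, the enzyme that acylates all Wnt ligands, fell by 0.41 ± 0.07 with OTX015 (adjusted p = 0.00027) and 0.31 ± 0.07 with COMBO (0.00179). With SEL201 it was at -0.20 ± 0.07 (adjusted p = 0.0512) and passed with the block (-0.20, 0.0033). SFRP5, a secreted Wnt antagonist, stood at 8.84, 6.8 and 9.63 CPM in UNTREATED, 9.9, 9.61 and 10.0 in SEL201, 9.6, 8.89 and 7.62 in OTX015 and 8.79, 6.84 and 9.53 in COMBO. SFRP5 passed in none of the comparisons, with log2 changes of 0.23 ± 0.16, 0.05 ± 0.16 and -0.01 ± 0.16 against UNTREATED.

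The intracellular regulators and targets of the Wnt pathway split between rises and falls. AXIN2, a scaffold of the beta-catenin destruction complex and a standard target of the pathway, was at -0.09 ± 0.12 with SEL201 (adjusted p = 0.652) and rose by 0.49 ± 0.11 with COMBO (0.00201). With OTX015 it rose by 0.33 ± 0.11 (adjusted p = 0.0284), a call lost without UNTREATED 3 (0.103), OTX015 1 (0.0693) or OTX015 2 (0.0904). AXIN2 was above SEL201 by 0.58 ± 0.12 in COMBO (adjusted p = 0.00124) and by 0.42 ± 0.12 in OTX015 (0.0188), the latter lost without SEL201 1 (0.0559), SEL201 3 (0.0606), OTX015 1 (0.0538) or OTX015 2 (0.0649). NKD1, a target that restrains Dishevelled, rose by 0.50 ± 0.11 with OTX015 (adjusted p = 0.00198) and 0.52 ± 0.11 with COMBO (0.0011), and at 0.29 ± 0.11 with SEL201 (0.0843) it passed only with the block (0.29, 0.0316).

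Its relative NKD2 stood at 15.8, 14.2 and 20.7 CPM in UNTREATED, 12.9, 10.0 and 19.8 in SEL201, 13.1, 9.58 and 13 in OTX015 and 10.0, 9.43 and 12.9 in COMBO. SEL201 overlapped each of the other groups, and OTX015 and COMBO lay below UNTREATED. NKD2 fell by 0.65 ± 0.23 with COMBO (adjusted p = 0.0237), lost without UNTREATED 3 (-0.48, 0.102), COMBO 1 (-0.61, 0.0751) or COMBO 2 (-0.57, 0.0857). With OTX015 it was at -0.50 ± 0.23 (adjusted p = 0.0803) and passed with the block (-0.50, 0.000976). APC2, a relative of the scaffold APC, was at -0.30 ± 0.10 with COMBO (adjusted p = 0.0239), lost without UNTREATED 1 (0.0887), UNTREATED 2 (0.062), COMBO 2 (0.101) or COMBO 3 (0.051), and at -0.23 ± 0.10 with OTX015 (0.0877), which passed with the block (-0.23, 0.0216).

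ZNRF3, a ubiquitin ligase that removes Frizzled receptors from the surface, stood at 152, 144 and 144 CPM in UNTREATED, 169, 173 and 152 in SEL201, 174, 174 and 161 in OTX015 and 164, 175 and 167 in COMBO. All treated libraries were above the highest UNTREATED one, and the treated groups overlapped. ZNRF3 rose by 0.21 ± 0.06 with OTX015 (adjusted p = 0.00663) and 0.20 ± 0.06 with COMBO (0.00616). Its call with SEL201, 0.17 ± 0.06 (adjusted p = 0.0484), was lost without UNTREATED 1 (0.058), UNTREATED 2 (0.132), UNTREATED 3 (0.115), SEL201 1 (0.149), SEL201 2 (0.169), OTX015 1 (0.0606), OTX015 2 (0.0574), COMBO 1 (0.0561), COMBO 2 (0.0526) or COMBO 3 (0.054). LEF1, a DNA-binding partner of beta-catenin, stood at 359, 350 and 315 CPM in UNTREATED, 393, 413 and 350 in SEL201, 415, 394 and 381 in OTX015 and 402, 382 and 383 in COMBO. SEL201 3 lay inside the UNTREATED range, and OTX015 and COMBO lay above it. LEF1 rose by 0.22 ± 0.06 with OTX015 (adjusted p = 0.0099) and 0.19 ± 0.06 with COMBO (0.0172), the latter lost without UNTREATED 3 (0.0799) or COMBO 1 (0.0656). With SEL201 LEF1 was at 0.18 ± 0.06 (adjusted p = 0.0581) and passed with the block (0.17, 0.000404).

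**Figure D4:**
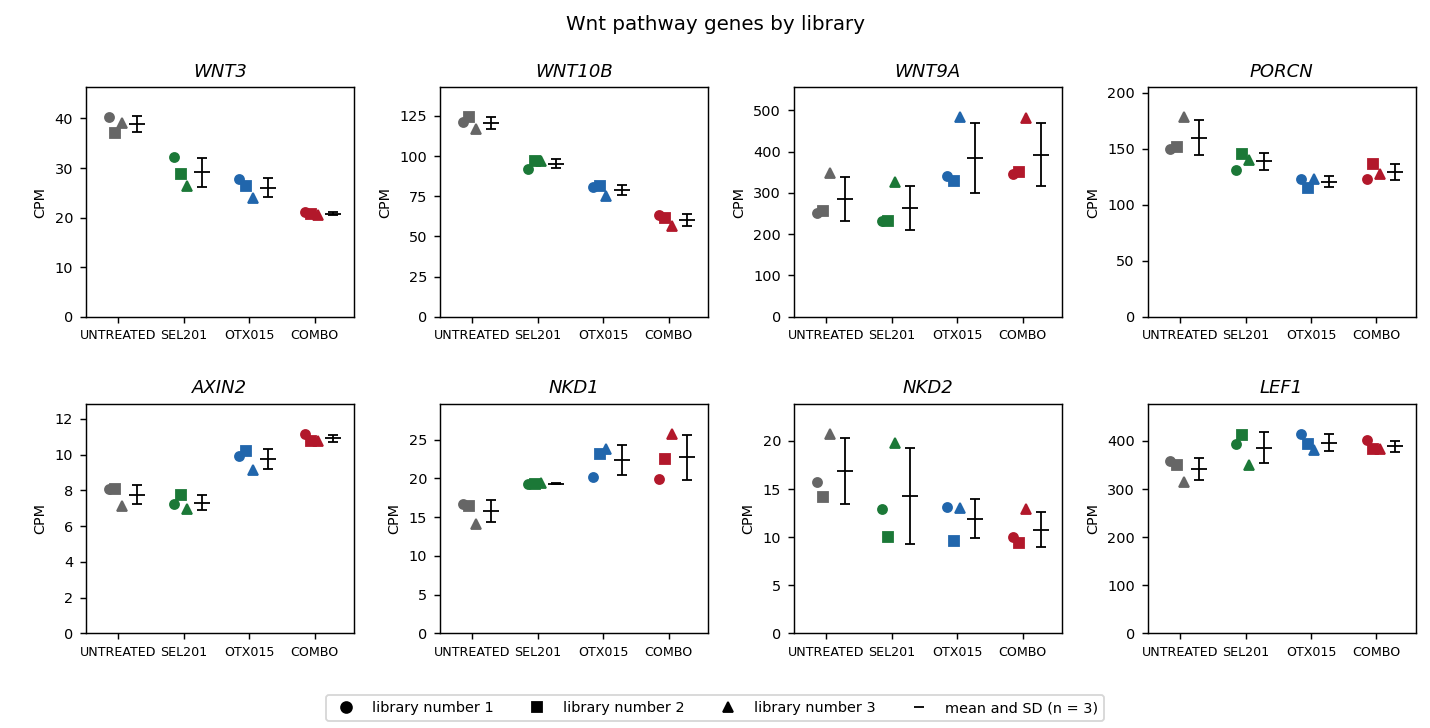
Panels show the CPM of 8 Wnt pathway genes by group, with a symbol per library, its shape for the library number, and the mean and SD of the 3 beside them. WNT10B steps down across the groups without overlap, library 3 of WNT9A stands above the other libraries in each group, and AXIN2 is higher in OTX015 and COMBO than in UNTREATED and SEL201.

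Of 71 other Wnt pathway genes listed, 32 were measured. With SEL201, 3 rose (9.38%) and 8 fell (25%), against 10.1% and 11.1% of all genes, and with the block 6 rose (18.8%) and 10 fell, against 18.0% and 19.1%. With OTX015 9 rose (28.1%) and 11 fell (34.4%), against 23.3% and 24.7%. With COMBO 10 rose (31.2%) and 13 fell (40.6%), against 28.3% and 29.6%, with a median log2 change of -0.16. FZD2, a Frizzled receptor, fell by 0.38 ± 0.08, 0.73 ± 0.08 and 0.98 ± 0.08 with SEL201, OTX015 and COMBO (adjusted p = 0.00299, 4.07e-06 and 1.19e-07). VANGL2, a planar cell polarity protein, fell by 1.89 ± 0.21 with OTX015 (adjusted p = 6.83e-06) and 2.66 ± 0.23 with COMBO (2.34e-07). CCDC88C, a Dishevelled-binding protein, fell by 1.34 ± 0.13 with COMBO (adjusted p = 1.01e-06), and PRICKLE1, of the polarity branch, fell by 0.81 ± 0.13 with SEL201 (0.000572). CELSR3, a polarity cadherin, rose by 0.20 ± 0.04 with SEL201 (adjusted p = 0.00203), and DAAM1, a formin downstream of Dishevelled, rose by 0.40 ± 0.06 with OTX015 (6.63e-05). None of the 32 passed the interaction test in edgeR, against 0.210% positive and 0.0699% negative among all genes. Of the 32, 2 positive and 1 negative value had an unadjusted p under 0.05. The lowest p belonged to PRICKLE1 (0.84 ± 0.18, adjusted p = 0.0853), DKK1 (1.02 ± 0.37, 0.364) and FZD9 (-0.26 ± 0.12, 0.535). With the block PRICKLE1 (adjusted p = 0.00442) and DKK1 (4.06e-11) passed and FZD9 did not (0.168), while AMER1 (-0.17, 0.0461) and CXXC5 (-0.18, 0.0274) passed with negative values. These calls were 6.25% of the 32 in each direction, against 4.02% positive and 2.73% negative among all genes.

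The 4 genes set apart from both pathway groups also moved. TGFB1I1, the focal adhesion adaptor Hic-5, stood at 180, 170 and 191 CPM in UNTREATED, 148, 151 and 138 in SEL201, 121, 122 and 110 in OTX015 and 103, 107 and 111 in COMBO. SEL201 lay below UNTREATED, and OTX015 and COMBO, which overlapped each other, lay below SEL201. TGFB1I1 fell by 0.31 ± 0.06 (adjusted p = 0.00231), 0.62 ± 0.06 (1.56e-06) and 0.75 ± 0.06 (1.14e-07). SMURF2P1, a pseudogene of the ubiquitin ligase SMURF2, stood at 18.8, 19.1 and 16.9 CPM in UNTREATED, 24, 24.2 and 25.4 in SEL201, 24, 24.8 and 27.6 in OTX015 and 26.2, 28.4 and 29.2 in COMBO. All treated libraries lay above all UNTREATED ones, and OTX015 overlapped the other treated groups. SMURF2P1 rose by 0.42 ± 0.09 (adjusted p = 0.00432), 0.48 ± 0.09 (0.000575) and 0.61 ± 0.09 (4.41e-05), and its reads may be shared with SMURF2, so its own level is uncertain. BMP1, a protease that matures procollagen, fell by 0.23 ± 0.05 with SEL201 (adjusted p = 0.00586), 0.25 ± 0.05 with OTX015 (0.00103) and 0.36 ± 0.05 with COMBO (3.39e-05). BMP2K, a kinase of endocytosis, rose by 0.24 ± 0.06 with OTX015 (adjusted p = 0.00715) and 0.35 ± 0.06 with COMBO (0.000329), and its difference between COMBO and SEL201, 0.23 ± 0.06 (0.0111), was lost without COMBO 3 (0.17, 0.053).

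The treatments were also compared with each other. COMBO was higher than SEL201 for 10 (22.7%) and lower for 13 (29.5%) of the 44 genes, against 18.8% and 21.2% of all genes. With the block it was higher for 12 (27.3%), TGFB2 and BMP8A being added, and lower for 18 (40.9%), BMP2, ACVR1B, APC2, NKD2 and BMP1 being added, against 26.0% and 27.4%. OTX015 was higher than SEL201 for 6 (BMP6, TGFBR3, ACVR1, ID2, WNT9A and AXIN2) and lower for 6 (LTBP2, LTBP4, ACVR2B, FST, WNT10B and TGFB1I1), 13.6% each, against 10.4% and 13.1% of all genes. ACVR2B was lower in OTX015 than SEL201 by -0.22 ± 0.07 (adjusted p = 0.0448), a call lost without any 1 of SEL201 1, SEL201 2, SEL201 3, OTX015 1, OTX015 3, COMBO 1, COMBO 2 or COMBO 3, at -0.15 (0.172) without OTX015 3. With the block 11 genes were higher in OTX015 than in SEL201 and 12 lower, against 18.7% and 21.1% of all genes. COMBO was higher than OTX015 for BMP8B alone and lower for 7 (LTBP2, LTBP4, SMAD6, FST, FSTL3, WNT3 and WNT10B), against 2.90% and 4.01% of all genes. With the block COMBO was higher than OTX015 for 2, BMP8B and ID2, and lower for 9, TGFB3 and FSTL1 being the ones added, against 10.0% and 12.2% of all genes.

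FST and FSTL3 were the only genes of the 44 that passed the test of additivity, which asks whether the COMBO change differs from the sum of the single-agent changes. FST fell less in COMBO than the sum, by an interaction of 1.10 ± 0.19 log2 units (adjusted p = 0.0298), and FSTL3 did so by 0.50 ± 0.08 (0.022). Among all genes 0.210% were called higher and 0.0699% lower in this test. No gene of the 44 was called lower in edgeR, where 6 had an unadjusted p under 0.05, and DESeq2 called 1, BMP7. The FST call was lost without any 1 of UNTREATED 1, UNTREATED 2, SEL201 1, SEL201 2, OTX015 1, OTX015 2, OTX015 3, COMBO 1 or COMBO 2, where its value stayed between 1.02 and 1.16 and its adjusted p reached 0.0941 (without COMBO 2). The FSTL3 call was lost without UNTREATED 2 (0.0663), UNTREATED 3 (0.0523), SEL201 1 (0.0679), SEL201 2 (0.0809), OTX015 1 (0.0573) or COMBO 2 (0.0648), with values of 0.45 to 0.49.

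With the library number as a block, 7 genes had a positive interaction (FST, FSTL3, FSTL1, LTBP2, BMP2, PORCN and WNT9A) and 3 a negative one (BMP4, BMP7 and LEF1), against 4.02% and 2.73% of all genes. For BMP7 the interaction was -0.56 ± 0.12 (adjusted p = 0.0903), and -0.56 (0.00026) with the block. LTBP2, which fell most after FST, had an interaction of 0.32 ± 0.12 (adjusted p = 0.382), and 0.32 (0.0266) with the block. For the genes that rose, ID2 had -0.14 ± 0.16 (adjusted p = 0.89) and LTBP1 -0.32 ± 0.12 (0.385), and neither passed in either fit.

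**Figure D5:**
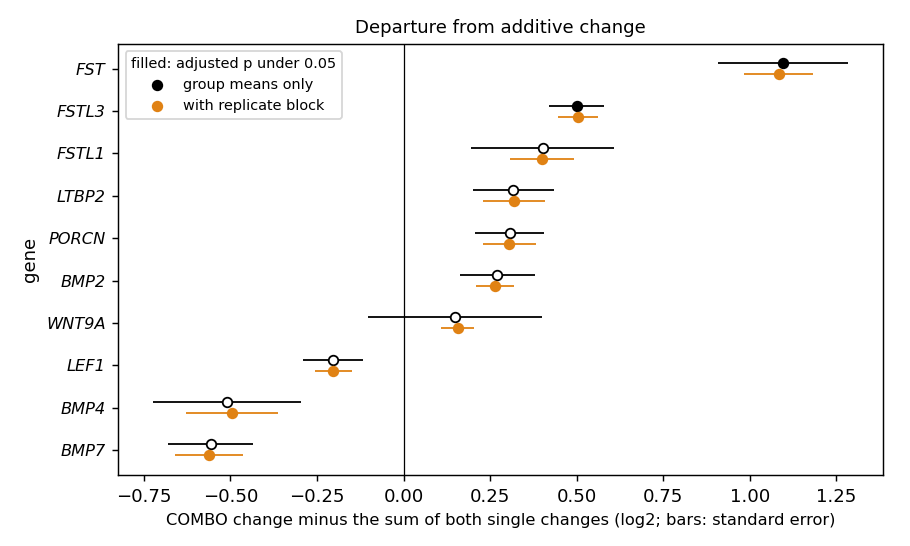
Points are the interaction (x axis, log2 units: the COMBO change less both single-agent changes) of the 10 genes that passed with or without the replicate block, bars are standard errors, and filled points have an adjusted p under 0.05. The values of both fits lie close together for each gene, and FST and FSTL3 are filled in both.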

How the data were processed

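Raw gene counts, in 1 column per library, are what the authors deposited, and they were used unchanged. The submitters' processing notes list the build hg19 and, with no roles, STAR 2.5.4b, featureCounts, Trimmomatic, FastQC, SAMtools 1.9 and DESeq2. Libraries were stranded poly(A), per the labels' protocols. Which annotation and strand setting the counting used, and how genes were filtered, is not given in the sources used here.

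All 12 libraries were fitted by quasi-likelihood with edgeR 4.0.16 (R 4.3.3), using glmQLFit and glmQLFTest on group means after filterByExpr and TMM scaling. P-values were adjusted by Benjamini-Hochberg over 8579 genes at a threshold of 0.05, for 7 contrasts that share libraries. The fit without the block was tested on simulated counts drawn independently for each library. These held no shared effect of the library number, so that effect was not covered. CPM is counts scaled to a common library total by TMM, as edgeR gives it. Standard errors are the log2 change over the square root of F. The genes and lists were chosen with earlier results of these data known. Values in all libraries are given for genes past the threshold with at least a 1.5-fold change in any contrast, plus the gene with the largest COMBO change in a role without one, 22 in all. Of the other listed genes, the 3 with the lowest p per pathway are named for each treatment against UNTREATED and for the interaction, except 1 gene that is not reported here. Other genes and markers were named after their values were seen.

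Same-numbered libraries deviated from their group means together (Pearson r over genes of 0.275 to 0.588 in 18 pairs, against -0.477 to 0.199 in the 36 other pairs), so the numbers were taken as pairs. This comes from the data, as the labels do not say what a number shares. The biological coefficient of variation was 7.92% without the block and 4.35% with it. No libraries agreed within sampling noise. Exon lengths came from GENCODE v29 (union of exons, matched by symbol), and promoters from RefSeq. The alternatives were RLE scaling, DESeq2 1.42.0, no filter, a stricter filter (10 CPM in 3 libraries), the compared groups alone, the replicate block, each library left out, and each number left out.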

Additional observations from a re-analysis of the deposited data

Results flagged for a closer look

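The interaction values of FST and FSTL3 were picked out because the effect of one agent differed with the presence of the other in the test of that difference itself. FST had an interaction of 1.10 ± 0.19 log2 units (SE, edgeR adjusted p = 0.0298) and FSTL3 one of 0.50 ± 0.08 (0.022). Both fell in COMBO by less than the sum of their falls with SEL201 and OTX015.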

How the results depend on the processing

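No called value of the 44 genes changed direction under any alternative run. RLE scaling, no filter, the stricter filter and the fit of the compared groups alone kept the counts of called genes within 1.5 times. The stricter filter removed 3 of the 44 genes, and the compared groups alone could not be fitted for the interaction. DESeq2 called 1 gene with a negative interaction, where edgeR called 0. The replicate block called 2 genes higher in COMBO than in OTX015 in place of 1. It called 11 higher and 12 lower in OTX015 than in SEL201 in place of 6 and 6, and 7 positive and 3 negative interactions in place of 2 and 0. The block lost no call of the 44 genes in any of the 7 contrasts.

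Leaving out libraries, singly or all 4 of a number, moved the counts as follows. With SEL201 against UNTREATED, 3 to 8 genes were called higher and 6 to 13 lower. For COMBO against OTX015 the ranges were 0 to 1 higher and 2 to 7 lower, and for OTX015 against SEL201 3 to 6 higher and 3 to 8 lower. Positive interactions ranged from 0 to 2. With OTX015 or COMBO against UNTREATED and for COMBO against SEL201 all counts stayed within 1.5 times. Where an omission leaves fewer libraries the test has fewer residual degrees of freedom.

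The spread comes from 3 libraries a group, and it is not known whether these were separate cultures.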
